A study of Homo sapiens with 12 samples.

Results

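The 9 genes described here are used as surface or enrichment markers of stem-like cells in colorectal tissue and tumours: EPHB2, EPHB3, EPCAM, CD44, ALCAM, CD24, PROM1, LRIG1 and ALDH1A1. They were chosen by symbol, as known markers, with earlier results of these data known, and each matched 1 of the 63036 gene identifiers in the deposited table of TPM values, a unit of transcript abundance scaled for transcript length and to the same total in every library. PolyA-selected RNA of 2 colorectal carcinoma cell lines, HCT15 and HCT116, was sequenced with or without overexpression of RNF26, a RING finger ubiquitin ligase of the endoplasmic reticulum membrane. The 4 groups were HCT15 overexpressing RNF26, HCT15 control, HCT116 overexpressing RNF26 and HCT116 control, with 3 libraries each and 12 in all. The sources used here do not state how RNF26 was overexpressed, what the control cells carried or whether each line was a clone or a pool. Nothing in the labels ties the 3 libraries of a group to separate cultures, so p-values reflect the spread among libraries only, part or all of which could be technical.

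EPHB2 and EPHB3 are receptor tyrosine kinases for B-type ephrins. They are highest at the base of the intestinal crypt, where Wnt signalling is strongest, and they position cells along the crypt. EPCAM is a homophilic adhesion molecule of simple epithelia, CD44 a hyaluronan receptor made in many splice forms, ALCAM (CD166) an immunoglobulin-type adhesion molecule and CD24 a small glycosylated protein anchored in the membrane by a lipid. PROM1 (CD133) is a pentaspan protein of membrane protrusions, LRIG1 a transmembrane inhibitor of ERBB receptors, and ALDH1A1 an enzyme of retinoic acid synthesis. ALDH1A1 is cytosolic, so the name surface marker does not apply to it. HCT116 carries an activating mutation of beta-catenin and HCT15 a truncated APC, so Wnt signalling is altered in both lines by different lesions.

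In GRCh38, by the GENCODE v29 annotation, EPHB2 (ENSG00000133216) lies on chromosome 1 at 22710839 to 22921500 and EPHB3 (ENSG00000182580) on chromosome 3 at 184561784 to 184582409, both on the plus strand. EPCAM (ENSG00000119888) lies on chromosome 2 at 47345158 to 47387601, CD44 (ENSG00000026508) on chromosome 11 at 35138870 to 35232402 and ALCAM (ENSG00000170017) on chromosome 3 at 105366909 to 105576900, all on the plus strand. CD24 (ENSG00000272398) is on chromosome 6 at 106969831 to 106975627, PROM1 (ENSG00000007062) on chromosome 4 at 15963076 to 16084378, LRIG1 (ENSG00000144749) on chromosome 3 at 66378797 to 66501263 and ALDH1A1 (ENSG00000165092) on chromosome 9 at 72900662 to 73080442, all on the minus strand. CD24 has the processed pseudogenes CD24P1, CD24P2 and CD24P4, which are listed at 0 TPM in all 12 libraries, so reads of near-identical sequence may have been assigned between them and its value is uncertain. LRIG1 overlaps SLC25A26 on the opposite strand, which reached 22.9 TPM, and CD44 overlaps CD44-AS1, which reached 1.04 TPM. The sources used here do not state whether reads were counted by strand, so the level of LRIG1 is uncertain as well.

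A promoter window of each of the 3 members whose RNF26 and control libraries did not overlap in HCT15 is shown, since EPHB2 and EPHB3 were lower and CD24 was higher in the same cells. Each runs from 250 bases before to 50 bases after a RefSeq transcription start in GRCh38.p14 and is written 5′ to 3′ on the strand of the gene. Capitals mark GGGCGG or its reverse complement CCGCCC, the word bound by SP and KLF factors. The EPHB2 window is chr1:22710588-22710887 on the plus strand, the EPHB3 window chr3:184561535-184561834 on the plus strand and the CD24 window chr6:106975578-106975877 on the minus strand.
EPHB2: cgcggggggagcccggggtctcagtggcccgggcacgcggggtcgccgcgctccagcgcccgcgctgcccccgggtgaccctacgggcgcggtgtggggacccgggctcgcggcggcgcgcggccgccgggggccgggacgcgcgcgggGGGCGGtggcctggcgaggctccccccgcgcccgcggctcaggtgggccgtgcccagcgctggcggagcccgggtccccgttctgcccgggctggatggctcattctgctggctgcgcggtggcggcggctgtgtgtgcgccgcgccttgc
EPHB3: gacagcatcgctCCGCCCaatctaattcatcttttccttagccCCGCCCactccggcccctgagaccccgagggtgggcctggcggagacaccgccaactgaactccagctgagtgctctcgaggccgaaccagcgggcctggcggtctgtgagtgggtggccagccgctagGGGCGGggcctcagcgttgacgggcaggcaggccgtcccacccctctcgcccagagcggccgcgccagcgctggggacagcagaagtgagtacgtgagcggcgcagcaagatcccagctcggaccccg
CD24: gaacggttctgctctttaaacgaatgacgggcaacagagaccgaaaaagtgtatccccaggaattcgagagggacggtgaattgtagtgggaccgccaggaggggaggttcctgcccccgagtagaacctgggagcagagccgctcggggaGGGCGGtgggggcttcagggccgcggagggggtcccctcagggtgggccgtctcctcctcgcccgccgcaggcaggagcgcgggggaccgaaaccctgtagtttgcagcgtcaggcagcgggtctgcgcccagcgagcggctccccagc
Both strands were searched for GGGCGG, for the TCF/LEF word CTTTGAA, the same word with the ending of CTTTGAT, that of CTTTGTA, and that of CTTTGTT, for the E-box CACGTG and for the TATA word TATAAA. Of these kinds, GGGCGG was the only one found in the 3 windows, so no words of different kinds overlap there. GGGCGG was found 1 time in the EPHB2 window, 3 times in that of EPHB3 and 1 time in that of CD24, and 44.6% of the 27305 RefSeq promoter windows hold it. None of the 3 windows holds a TCF/LEF word, found in 13.9% of all windows, the E-box, found in 7.44%, or the TATA word, found in 11.95%. That says only that these letters are not in these windows. RefSeq starts give EPHB2 a further window, which differs by 1 base in position, and CD24 further windows, of which chr6:106975416-106975715 on the minus strand holds 1 TCF/LEF word. The windows printed are the first listed for each gene. The EPHB2 window is 83.0% G and C, above 99.2% of all windows, with 69.0% for EPHB3 and 66.7% for CD24, and the median of all windows is 58.3%. A window was matched for 8 of the 9 genes, EPCAM being the exception.

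RNF26 itself followed the labels, at 54.2 ± 0.562 TPM in HCT15 RNF26 libraries against 27.0 ± 0.762 TPM in HCT15 control libraries, and at 296 ± 39.4 TPM in HCT116 RNF26 libraries against 16.8 ± 1.44 TPM in HCT116 control libraries (SD, n = 3 each). The table holds no counts, so the depth of each library is unknown, and 13582 to 14135 genes reached 1 TPM per library. Genes at 1 TPM or more in at least 3 libraries were tested with limma on log2(TPM + 1), with Benjamini-Hochberg adjustment over all 15584 of them and a threshold of 0.05. Fold changes are on that scale, which understates the change of low genes. Of the 9 members 7 passed this filter, and LRIG1 and ALDH1A1 did not. HCT15 control replicate 3 stood apart, with 25.9% of its TPM on mitochondrial transcripts and 17.5% on ribosomal protein genes, against 16.4% to 17.7% and 21.8% to 24.3% in the other HCT15 controls. In HCT15 the median log2 fold change over all tested genes was -0.17, so each change of a tested member in HCT15 is also given relative to that median, with the median treated as fixed. The epithelial keratins were high in every group, KRT8 averaging from 1458 to 2057 TPM, while the colon genes CDX2 and CDH17 were low in HCT116. CDX2 averaged 29.2 TPM in HCT15 controls and 5.85 TPM in HCT116 controls, while CDH17 averaged 3.23 TPM in HCT15 controls and 0.113 TPM in HCT116 controls. Of the defining markers of other cells, CD3E, DCN and LUM were at 0 in all 12 libraries, PTPRC reached at most 0.04 TPM and PECAM1 at most 0.21 TPM. Other genes on those lists were detected, CD68 reaching 14.6 TPM, CD14 7.35 TPM, HBA1 5.18 TPM and COL1A1 2.77 TPM.

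**Figure D1:**
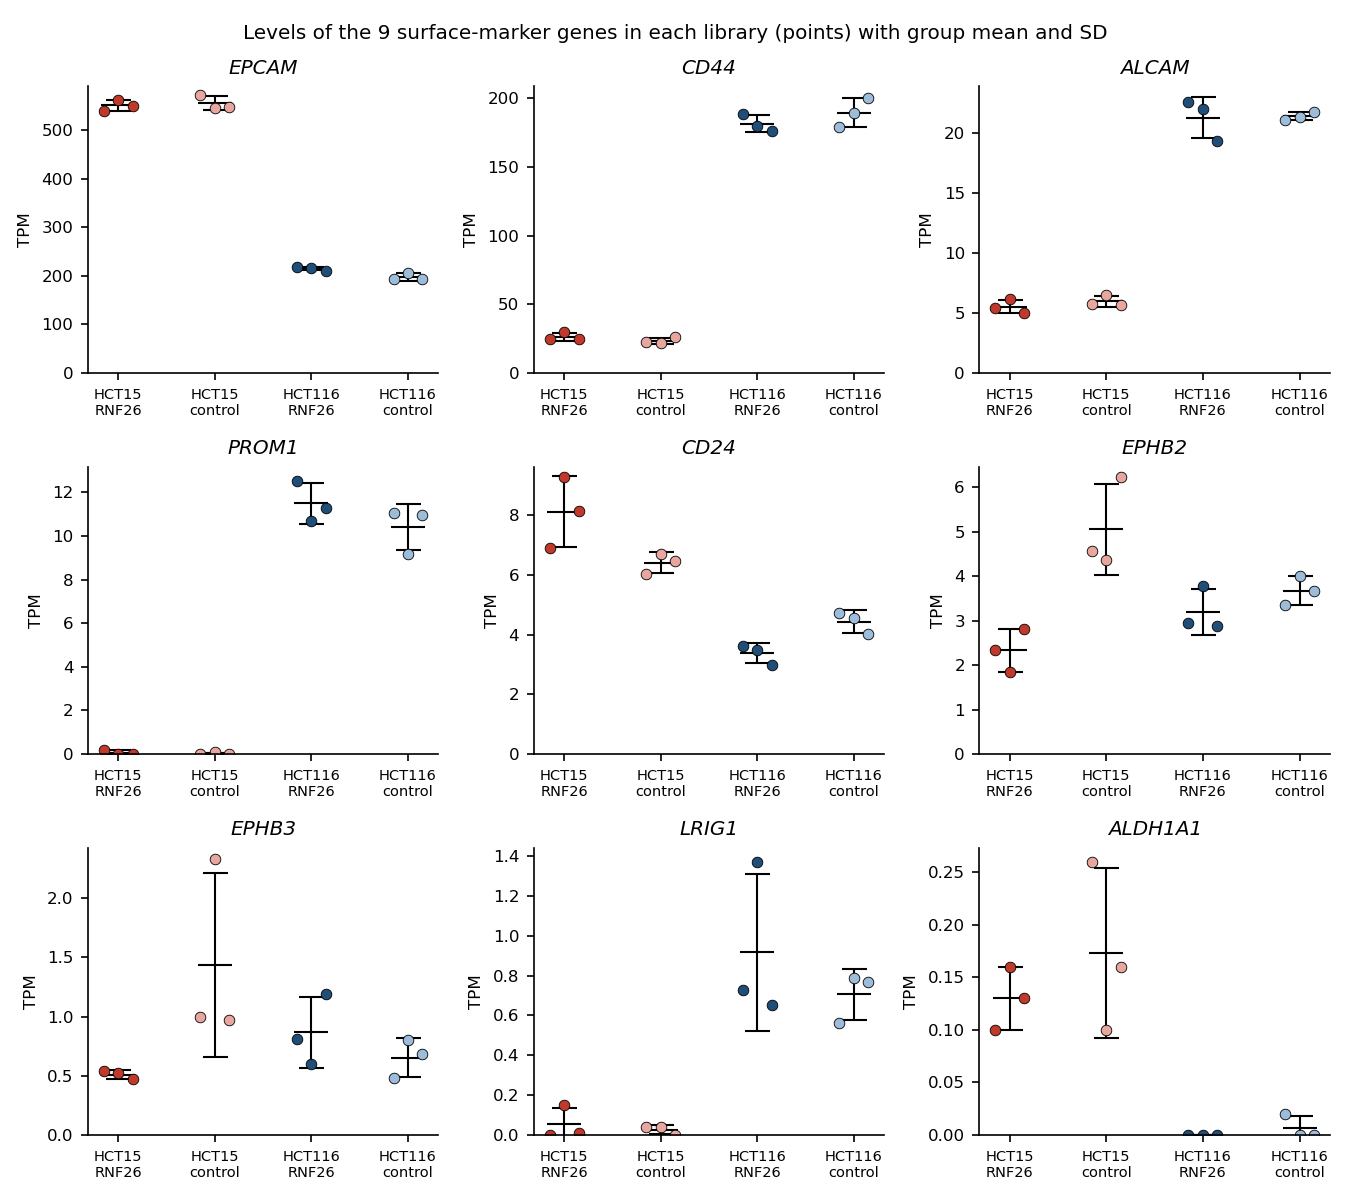
TPM of each of the 9 genes (vertical axes, linear from 0) in every library. Points are libraries of the 4 groups, with the group mean and SD (n = 3). EPHB2 and EPHB3 lie lower and CD24 higher in HCT15 RNF26 libraries than in HCT15 controls, and CD44, ALCAM, PROM1 and LRIG1 are far lower in HCT15 than in HCT116.

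In HCT15 cells overexpressing RNF26 the crypt-base receptor EPHB2 fell. The scarce EPHB3 was also called lower, under 15 of 23 alternatives, and the more abundant adhesion markers EPCAM, CD44 and ALCAM and the barely detected PROM1 did not pass the test. EPHB2 was listed at 2.33, 1.85 and 2.81 TPM in the 3 HCT15 RNF26 libraries, against 4.58, 4.37 and 6.24 TPM in the 3 HCT15 controls. Every RNF26 library lay below every control, and the highest value was in control replicate 3, the library that stood apart. EPHB2 averaged 2.33 ± 0.480 TPM in HCT15 RNF26 libraries and 5.06 ± 1.02 TPM in HCT15 controls (SD, n = 3 each), a ratio of means of 0.460. The limma log2 fold change was -0.86 (SE 0.15, 95% interval -1.19 to -0.54, Benjamini-Hochberg adjusted p = 0.00115), or -0.70 relative to the median of all genes (-1.02 to -0.37). Without control replicate 3 it was -0.73 (limma adjusted p = 0.00392). Ribosomal protein genes took 26.3% to 27.5% of the TPM in HCT15 RNF26 libraries and 17.5% to 24.3% in HCT15 controls, and with these and the mitochondrial genes left out EPHB2 stood at -0.86 (limma adjusted p = 0.00376). EPHB2 passed under each of the 23 alternatives in which it was tested, with limma adjusted p-values from 0.000964 to 0.0390, the highest after correcting for transcript GC content and length (the GC correction), where the log2 fold change was -0.42. Its GENCODE v29 transcripts have a higher GC content than 77.8% of tested genes. Its place among tested genes moved with it: 25.6% of tested genes averaged less than EPHB2 in HCT15 RNF26 cells, against 36.4% in HCT15 controls. In bulk RNA, fewer cells with a transcript and less transcript per cell cannot be told apart.

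EPHB3, the close relative of EPHB2, was scarce everywhere. It was listed at 0.54, 0.52 and 0.47 TPM in HCT15 RNF26 libraries, against 1.00, 2.33 and 0.97 TPM in HCT15 controls. The groups did not overlap, and control replicate 2 alone was far above the others. The log2 fold change was -0.64 (SE 0.20, 95% interval -1.08 to -0.21, limma adjusted p = 0.0260), and -0.48 relative to the median of all genes. EPHB3 passed the filter in exactly 3 libraries, 2 of them HCT15 controls, so it entered the test largely through the group in which it was high. Without control replicate 2 the log2 fold change was -0.39 (limma adjusted p = 0.0683), and the call was also lost without RNF26 replicate 1 (0.0599), replicate 2 (0.0553) or replicate 3 (0.0674), and with the correction for GC content and length (0.218). EPHB3 transcripts have a higher GC content than 90.6% of tested genes.

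CD24 went the other way in HCT15, without passing the test. It was listed at 6.91, 9.28 and 8.14 TPM in HCT15 RNF26 libraries, against 6.02, 6.71 and 6.47 TPM in HCT15 controls. All 3 RNF26 libraries lay above all 3 controls, with the lowest RNF26 library close to the highest control. The log2 fold change was 0.29 (SE 0.11, 95% interval 0.050 to 0.54, limma adjusted p = 0.0590), and 0.46 relative to the median of all genes (0.22 to 0.70). It passed the threshold under 6 of 24 alternatives, among them the fit without RNF26 replicate 1 (0.39, limma adjusted p = 0.0244). The passes included each setting that rescaled or corrected the TPM values. These were median-ratio scaling (0.48, limma adjusted p = 0.00333), quantile normalization (0.54, 0.00138) and the GC correction (0.41, 0.00859). The fit that dropped ribosomal protein and mitochondrial transcripts (0.42, 0.0154) was the last of them. Whether CD24 was called therefore depended on the scaling.

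The 4 other tested members had overlapping RNF26 and control libraries in HCT15. CD44 was listed at 24.78, 29.59 and 24.41 TPM in HCT15 RNF26 libraries, against 22.66, 21.92 and 26.03 TPM in HCT15 controls, and control replicate 3 lay inside the RNF26 range. Its log2 fold change was 0.15 (95% interval -0.041 to 0.34, limma adjusted p = 0.206), and it passed under 4 of 24 alternatives. These 4 were the settings that rescaled or corrected the TPM values, and CD44 was called higher in each. They were median-ratio scaling (0.36, limma adjusted p = 0.00572), quantile normalization (0.42, 0.00363) and the GC correction (0.24, 0.0335). The last was the fit that dropped ribosomal protein and mitochondrial transcripts (0.27, 0.0448). Whether CD44 was called therefore depended on the scaling. Relative to the median of all genes CD44 stood at 0.32 (0.12 to 0.51), an interval above 0. EPCAM was listed at 539.87, 562.91 and 550.47 TPM in HCT15 RNF26 libraries, against 571.68, 546.01 and 547.76 TPM in HCT15 controls. The ranges overlapped, and the log2 fold change was -0.010 (95% interval -0.12 to 0.10, limma adjusted p = 0.912). Relative to the median of all genes EPCAM stood at 0.16 (0.044 to 0.27), also above 0, and with median-ratio scaling at 0.21 (limma adjusted p = 0.00729). ALCAM was listed at 5.43, 6.13 and 5.03 TPM in HCT15 RNF26 libraries, against 5.78, 6.50 and 5.62 TPM in HCT15 controls, with a log2 fold change of -0.095 (95% interval -0.29 to 0.10) that was 0.092 with median-ratio scaling and 0.071 relative to the median of all genes (-0.12 to 0.27). PROM1 did not exceed 0.18 TPM in any HCT15 library, and its log2 fold change was 0.042, or 0.21 relative to the median (-0.037 to 0.45).

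Of the 7 tested members 2 fell and 0 rose in HCT15. EPHB3, 1 of the 2, entered the test largely through the HCT15 controls, the group in which it was high. Over all tested genes limma called 36.6%, with 31.2% lower and 5.39% higher, so the share of members that fell is near the background. With median-ratio scaling the genes called were 2242 higher and 2600 lower instead of 840 and 4857, and the members called were 3 higher (CD44, EPCAM and CD24) and 1 lower (EPHB2). The libraries did not overlap for 3 of the 7 tested members, 2 lower and 1 higher, a share near the 43.1% of all tested genes. Those of the untested LRIG1 and ALDH1A1 overlapped. The median log2 fold change of the 7 members was -0.010, against -0.17 over all tested genes.

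**Figure D2:**
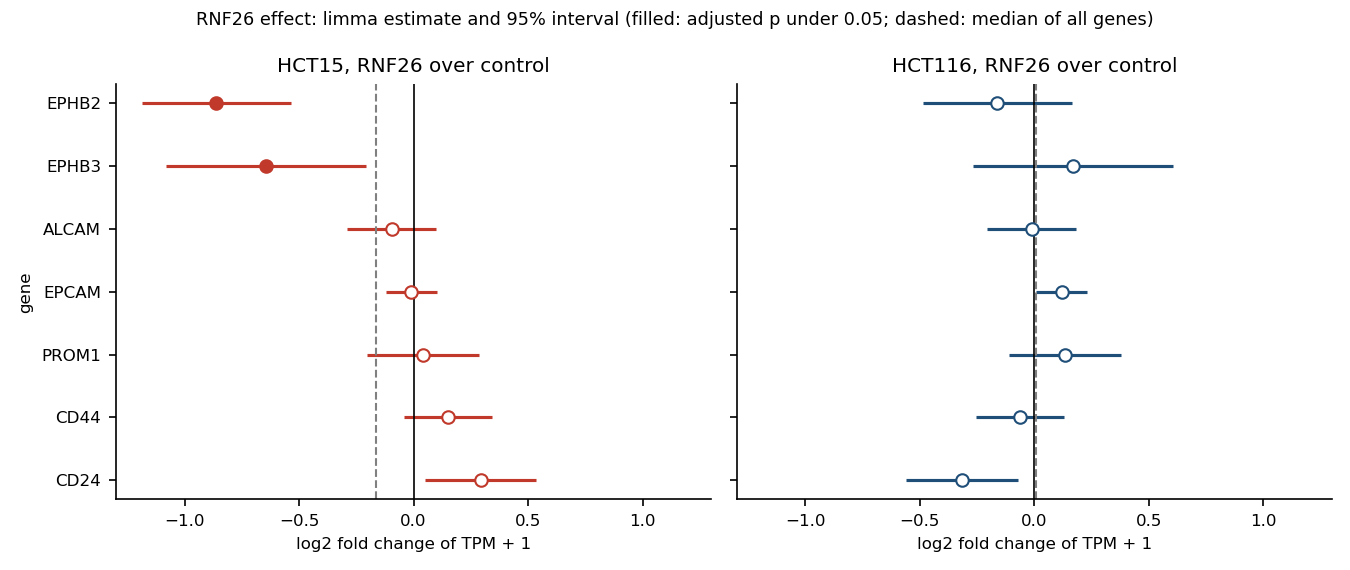
Log2 fold change of TPM + 1, RNF26 over control (horizontal axes), with its 95% interval for the 7 tested members in HCT15 (left) and HCT116 (right). Filled points passed a limma adjusted p of 0.05 and dashed lines mark the median of all genes. EPHB2 and EPHB3 are the filled points, at -0.86 and -0.64 in HCT15, and CD24 lies right of 0 in HCT15 and left of 0 in HCT116.

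In HCT116, where RNF26 reached a far higher level, no member passed the test. CD24 was listed at 3.63, 3.48 and 2.99 TPM in HCT116 RNF26 libraries, against 4.73, 4.56 and 4.01 TPM in HCT116 controls, and every RNF26 library lay below every control. Its log2 fold change was -0.32 (95% interval -0.56 to -0.073, limma adjusted p = 1). EPCAM was listed at 217.58, 216.03 and 210.75 TPM in HCT116 RNF26 libraries, against 192.91, 206.13 and 193.88 TPM in HCT116 controls. All RNF26 libraries lay above all controls, with a log2 fold change of 0.12 (95% interval 0.0091 to 0.23, limma adjusted p = 1). EPHB2, at 2.94, 3.79 and 2.87 TPM in HCT116 RNF26 libraries against 3.36, 4.00 and 3.68 TPM in HCT116 controls, had overlapping ranges and a log2 fold change of -0.16 (95% interval -0.49 to 0.17). EPHB3 was listed at 0.81, 0.60 and 1.19 TPM in HCT116 RNF26 libraries, against 0.48, 0.80 and 0.68 TPM in HCT116 controls, again with overlap.

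CD44 was listed at 188.12, 179.81 and 176.08 TPM in HCT116 RNF26 libraries, against 179.06, 189.21 and 199.85 TPM in HCT116 controls. ALCAM was listed at 22.51, 21.94 and 19.27 TPM in HCT116 RNF26 libraries, against 21.06, 21.33 and 21.72 TPM in HCT116 controls. PROM1, at 12.54, 10.70 and 11.30 TPM in HCT116 RNF26 libraries, overlapped the 11.07, 9.19 and 10.96 TPM of HCT116 controls. For these 3 genes the groups overlapped, and the limma 95% intervals ran from -0.25 to 0.13 for CD44, from -0.21 to 0.18 for ALCAM and from -0.11 to 0.38 for PROM1. The count of members called by limma was 0 of 7 in HCT116, with 2, CD24 and EPCAM, at an unadjusted p under 0.05, as were 657 of all 15584 tested genes. Over all tested genes 0.00642% were called, RNF26 itself. The libraries of 2 of the 7 tested members did not overlap, against 12.8% of all tested genes, and 2 genes are too few to read against that share.

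The effects of RNF26 in the 2 lines were compared by the difference of the log2 fold changes, HCT15 minus HCT116, in the same limma fit, which called 20.5% of all tested genes. CD24 differed, by 0.61 (SE 0.16, 95% interval 0.26 to 0.95, limma adjusted p = 0.0204): its libraries were higher with RNF26 in HCT15 and lower with RNF26 in HCT116. The call held under 22 of 23 alternatives and was lost without HCT116 control replicate 1, where the difference was 0.57 (limma adjusted p = 0.0519). EPHB2 differed by -0.70 (SE 0.21, 95% interval -1.16 to -0.24, limma adjusted p = 0.0373), the log2 fold change being the lower one in HCT15. This call held under 7 of 22 alternatives. It was lost with 6 processing settings: no filter (0.0915), median-ratio scaling (0.132), quantile normalization (0.159), removal of mitochondrial and ribosomal protein genes (0.0874), the replicate block (0.0509) and the GC correction, which gave -0.26 (0.389). It was also lost without any of HCT116 control replicates 1 (0.0850), 2 (0.0516) or 3 (0.0737), HCT116 RNF26 replicates 1 (0.0587) or 2 (0.0914), HCT15 control replicates 1 (0.0519) or 3 (0.0687) and HCT15 RNF26 replicates 1 (0.0714) or 2 (0.0705), the values being limma adjusted p. EPHB3 differed by -0.81 without passing (limma adjusted p = 0.0639), and passed without HCT15 control replicate 3 (0.0447). For CD44 the difference was 0.21 (95% interval -0.059 to 0.48), for EPCAM -0.13 (-0.29 to 0.026), for ALCAM -0.083 (-0.36 to 0.19) and for PROM1 -0.093 (-0.44 to 0.25).

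Ratios of 2 markers within a library, which do not depend on how libraries are scaled, were taken after the values had been seen and carry no test. EPHB2 amounted to 0.424% ± 0.0912 of EPCAM in HCT15 RNF26 libraries and 0.914% ± 0.195 in HCT15 controls, and to 1.49% ± 0.230 in HCT116 RNF26 libraries and 1.86% ± 0.105 in HCT116 controls (SD, n = 3 each). The ratio of EPHB2 to CD24 ranged from 0.199 to 0.345 in HCT15 RNF26 libraries and from 0.651 to 0.964 in HCT15 controls, with a wide gap between them. In HCT116 it ranged from 0.810 to 1.09 in RNF26 libraries and from 0.710 to 0.918 in controls, which overlap. The ratio of CD44 to CD24, a pair often read together when tumour cells are sorted, averaged 3.26 ± 0.300 in HCT15 RNF26 libraries and 3.68 ± 0.384 in HCT15 controls, with overlapping ranges. It averaged 54.1 ± 4.12 in HCT116 RNF26 libraries and 43.1 ± 6.14 in HCT116 controls (SD, n = 3 each), without overlap.

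**Figure D3:**
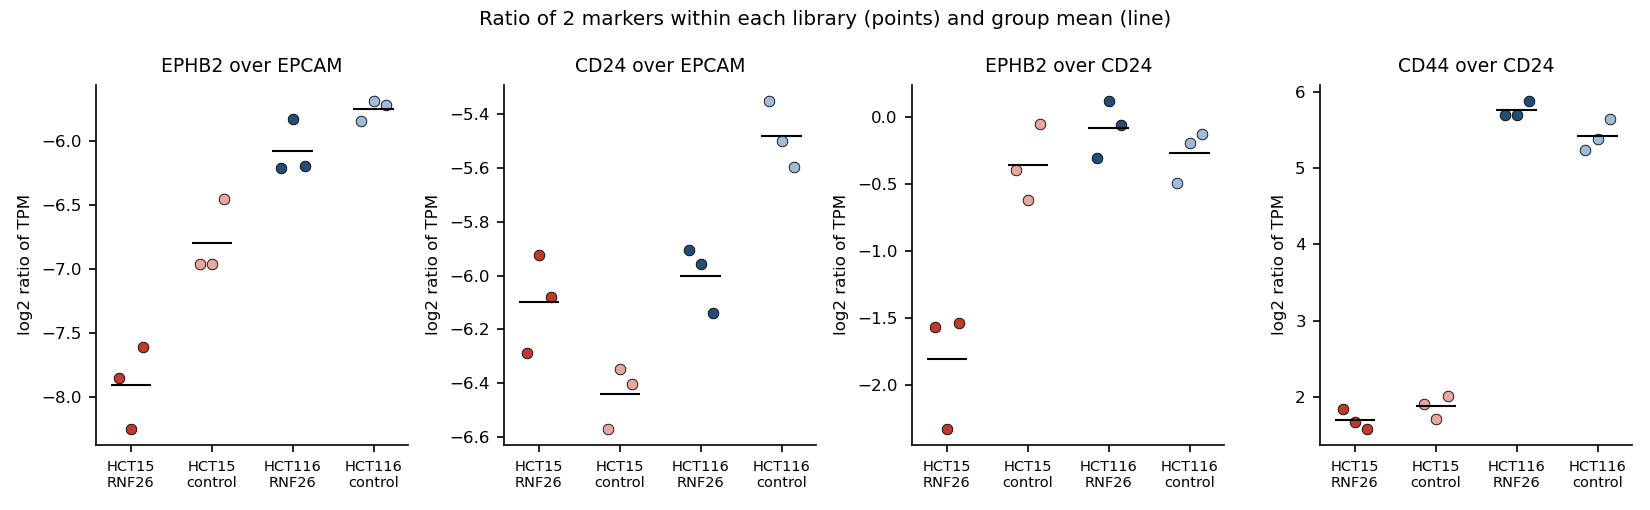
Log2 ratio of the TPM of 2 markers in each library (points) and the group mean (line), by group. The ratio of EPHB2 to CD24 is lowest in HCT15 RNF26 libraries, and the ratio of CD44 to CD24 separates the 2 lines.

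For CD44, ALCAM, PROM1 and EPCAM the control cells of the 2 lines lay much further apart than RNF26 and control cells within a line. In control cells, HCT15 had less CD44, ALCAM, PROM1 and LRIG1 and more EPCAM than HCT116. CD44 averaged 23.5 ± 2.19 TPM in HCT15 controls and 189 ± 10.4 TPM in HCT116 controls (SD, n = 3 each), a ratio of 0.124, with a log2 fold change of -2.96 (SE 0.087, limma adjusted p = 1.30e-10). PROM1 was listed at 0.01, 0.07 and 0 TPM in HCT15 controls, against 11.07, 9.19 and 10.96 TPM in HCT116 controls (log2 fold change -3.47, limma adjusted p = 2.55e-10). ALCAM averaged 5.97 ± 0.469 TPM in HCT15 controls and 21.4 ± 0.332 TPM in HCT116 controls (log2 fold change -1.69, limma adjusted p = 1.66e-08). EPCAM ran the other way, at 555 ± 14.3 TPM in HCT15 controls and 198 ± 7.37 TPM in HCT116 controls (ratio 2.81, log2 fold change 1.49, limma adjusted p = 4.14e-10). These 4 calls held under each alternative run.

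CD24 averaged 6.40 ± 0.350 TPM in HCT15 controls and 4.43 ± 0.376 TPM in HCT116 controls (log2 fold change 0.45, limma adjusted p = 0.00360), and the call was lost with quantile normalization (0.12, limma adjusted p = 0.238). EPHB3 passed the filter in 3 libraries, 2 of them HCT15 controls, so it entered this test largely through the higher group. It was higher in HCT15 controls by 0.52 (limma adjusted p = 0.0364), a call that held under 15 of 22 alternatives. It was lost without HCT15 control replicate 2 (0.145) or HCT116 control replicates 1 (0.113) or 3 (0.0674), with no filter (0.0845), with median-ratio (0.0785) or quantile scaling (0.0706) and after the GC correction (0.158). EPHB2 was higher by 0.36 (limma adjusted p = 0.0469), and held under 7 of 22 alternatives. It was lost without HCT15 control replicates 1 (0.0520) or 3 (0.188), HCT15 RNF26 replicate 1 (0.0590), HCT116 control replicates 1 (0.133), 2 (0.0556) or 3 (0.0912) and HCT116 RNF26 replicates 1 (0.0574) or 3 (0.0528), by limma adjusted p. The other losses came with 7 processing settings, with adjusted p-values from 0.0565 with the replicate block to 0.765 with quantile normalization. The median log2 difference between the lines over all tested genes was 0.22, and the intervals of EPHB2, EPHB3 and CD24 relative to it all include 0. This comparison and the RNF26 comparison in HCT15 share the HCT15 controls.

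All 7 tested members passed in the comparison of lines, 4 higher and 3 lower in HCT15, where limma called 69.5% of all tested genes, 43.6% higher and 26% lower. EPHB3, among the 4, entered the test largely through the HCT15 controls. The control libraries of the 2 scarce members, all under 1 TPM, did not overlap between the lines either. The share of all genes without overlap was not computed for this comparison. Such low values are uncertain, that of LRIG1 also because of SLC25A26 on the opposite strand. LRIG1 was listed at 0.04, 0.04 and 0 TPM in HCT15 controls, against 0.56, 0.79 and 0.77 TPM in HCT116 controls. With RNF26 it was listed at 0, 0.15 and 0.01 TPM in HCT15 and 0.73, 1.37 and 0.65 TPM in HCT116. ALDH1A1 was listed at 0.26, 0.10 and 0.16 TPM in HCT15 controls, against 0.02, 0 and 0 TPM in HCT116 controls, and with RNF26 at 0.10, 0.16 and 0.13 TPM in HCT15 and at 0 in all HCT116 libraries. With no filter on low values limma gave a log2 fold change between control lines of -0.73 for LRIG1 (adjusted p = 0.00131) and 0.22 for ALDH1A1 (adjusted p = 0.00256).

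**Figure D4:**
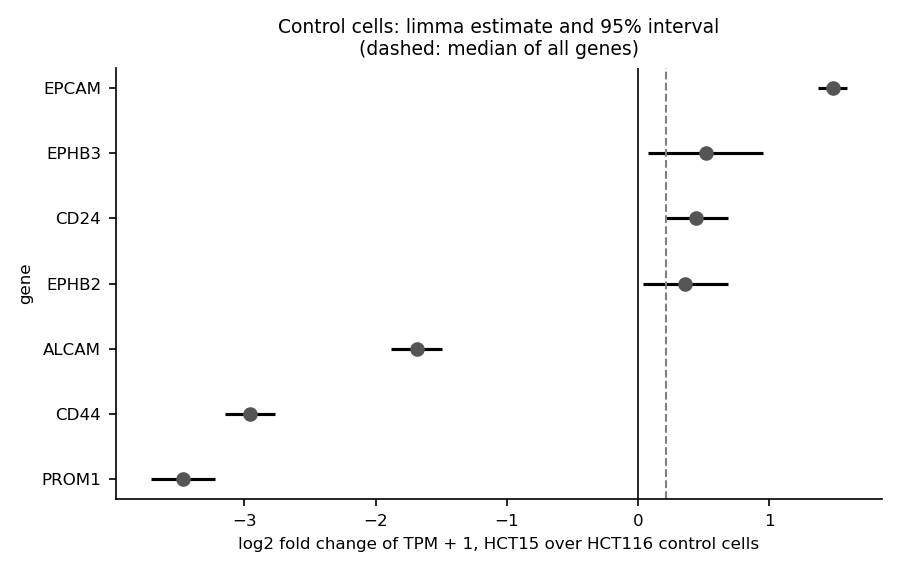
Log2 fold change of TPM + 1 between control cells, HCT15 over HCT116 (horizontal axis), with its 95% interval for the 7 tested members. PROM1, CD44 and ALCAM lie at -3.47, -2.96 and -1.69 and EPCAM at 1.49, while EPHB2, EPHB3 and CD24 lie near the dashed median of all genes at 0.22.

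TPM is per length, so the members can be ordered by level. In HCT15 RNF26 cells the order was EPCAM, CD44, CD24, ALCAM, EPHB2 and EPHB3, with no overlap between neighbours, and ALDH1A1, PROM1 and LRIG1 overlapped below them. In HCT15 controls the same genes led, but CD24, ALCAM and EPHB2 could not be separated by their ranges. In HCT116 RNF26 cells EPCAM stood above CD44, followed by ALCAM, PROM1, then CD24 and EPHB2 with overlap. In HCT116 controls EPCAM and CD44 overlapped at the top, and ALCAM, PROM1, CD24 and EPHB2 followed apart from each other. In both HCT116 groups LRIG1 and EPHB3 overlapped below EPHB2, and ALDH1A1 was last. EPCAM averaged more than 98.7% of tested genes in both HCT15 groups, and more than 96.7% in HCT116 RNF26 cells and 96.4% in HCT116 controls.

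Genes of the crypt stem and progenitor programme outside the 9 were also lower with RNF26 in HCT15. Of 20 listed genes 15 were tested, and 11 fell and 0 rose, against 31.2% of all tested genes that fell. This list and the further lists below were chosen with earlier results of these data known. Their counts are therefore descriptions and not independent tests. The median log2 fold change of the 15 genes was -0.51, against -0.17 over all tested genes, and 9 fell with median-ratio scaling and 8 after the GC correction. With median-ratio scaling 2600 of all 15584 tested genes fell and 2242 rose. After the GC correction 2406 of 14849 tested genes fell and 1767 rose. These are also the backgrounds for the further lists under the same settings. The 4 with the smallest p were ZNRF3, TNFRSF19, SOX9 and RNF43. ZNRF3, which clears Wnt receptors from the cell surface, averaged 4.34 TPM in HCT15 RNF26 cells and 12.01 TPM in HCT15 controls (log2 fold change -1.29, limma adjusted p = 3.91e-05). RNF43, its relative, averaged 13.0 TPM in HCT15 RNF26 cells and 22.2 TPM in HCT15 controls (-0.72, limma adjusted p = 0.000221). SOX9, a transcription factor of crypt progenitors, averaged 19.1 TPM in HCT15 RNF26 cells and 41.5 TPM in HCT15 controls (-1.07, limma adjusted p = 0.000142), and the receptor TNFRSF19 2.41 TPM in HCT15 RNF26 cells and 5.33 TPM in HCT15 controls (-0.89, limma adjusted p = 0.000106). LGR5, the marker of crypt base columnar cells, reached at most 0.15 TPM and was not tested, and OLFM4 was at 0 in all libraries. In HCT116 no gene of this list passed.

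Among EPH receptors other than EPHB2 and EPHB3, 6 of 12 were tested, and 3 fell and 0 rose in HCT15, with a median log2 fold change of -0.42. Over all tested genes 31.2% fell, with a median of -0.17. EPHA2 averaged 19.7 TPM in HCT15 RNF26 cells and 42.2 TPM in HCT15 controls (log2 fold change -1.06, limma adjusted p = 3.66e-05). EPHA1 changed by -0.65 (limma adjusted p = 0.000296) and EPHB4 by -0.74 (limma adjusted p = 0.00284), and all 3 fell with median-ratio scaling too. After the GC correction EPHB4 was lost (-0.34, limma adjusted p = 0.0527) and EPHA10, chosen after its values were seen, was called higher (0.42, limma adjusted p = 0.0310). Of the ephrins, the ligands, 7 of 8 were tested with a median log2 fold change of -0.18. EFNB1, a ligand of EPHB receptors, was the only one called, where limma called 36.6% of all tested genes. EFNB1 averaged 1.75 TPM in HCT15 RNF26 cells and 2.62 TPM in HCT15 controls (-0.39, limma adjusted p = 0.0236). The EFNB1 call was lost with median-ratio scaling (limma adjusted p = 0.123) and without HCT15 control replicate 3 (limma adjusted p = 0.0852), and after the GC correction 2 ephrins rose and 0 fell. No EPH receptor or ephrin passed in HCT116.

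**Figure D5:**
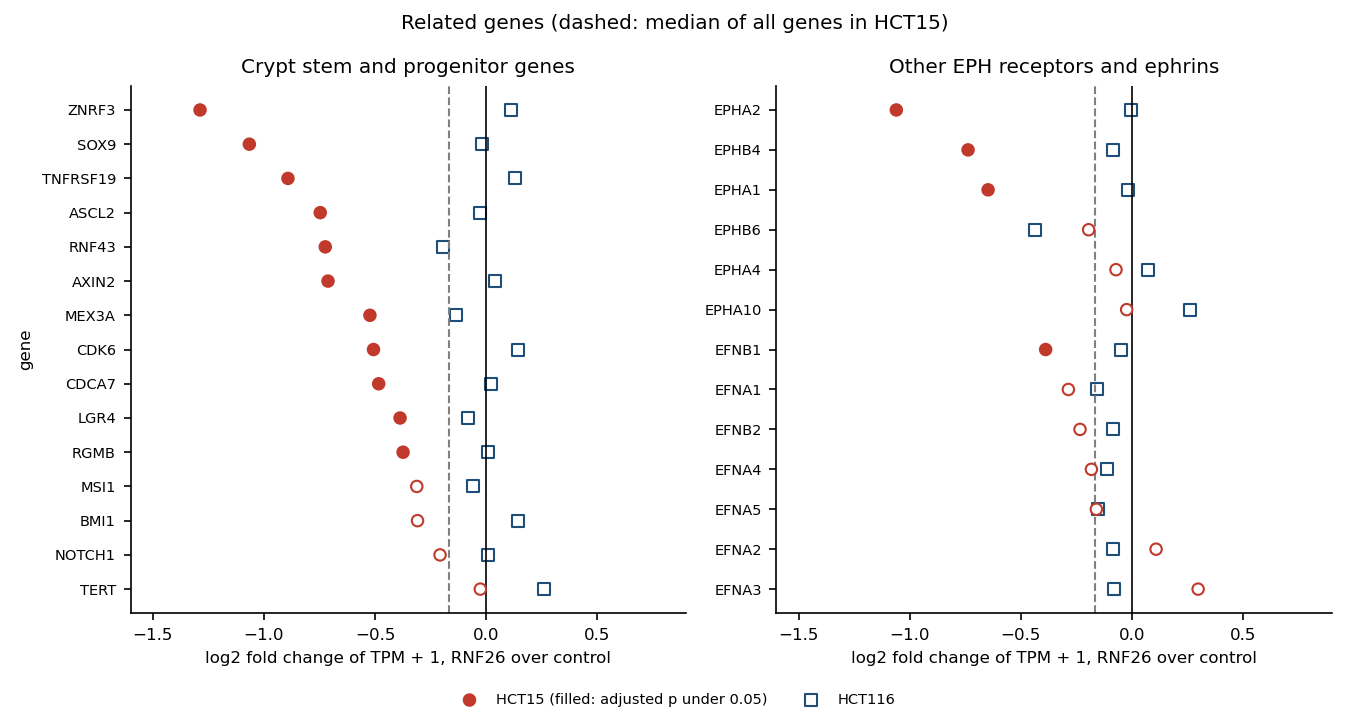
Log2 fold change of TPM + 1, RNF26 over control (horizontal axes), of the tested crypt stem and progenitor genes (left) and of the other EPH receptors and the ephrins (right). Circles are HCT15, filled where the limma adjusted p was under 0.05, and squares are HCT116. ZNRF3 at -1.29 and EPHA2 at -1.06 lie furthest left in HCT15, and no square marks a called gene.

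Genes for partners of the adhesion markers were examined in the same way. Of 15 tested genes for partners and cleavage of EPCAM, 8 fell and 0 rose in HCT15, against 31.2% of all tested genes that fell. Their median log2 fold change was -0.40, against -0.17 over all tested genes. CLDN7 (log2 fold change -0.075) and CD9 (-0.024), which sit with EPCAM in the membrane, did not pass. Among those with the smallest p were the membrane protease ST14 (log2 fold change -1.22, limma adjusted p = 3.19e-05) and its inhibitors SPINT1 (-0.82, 0.000247) and SPINT2 (-0.75, 0.000370). ST14 averaged 27.0 TPM in HCT15 RNF26 cells and 64.3 TPM in HCT15 controls. Of 14 tested genes for ligands, splicing and processing of CD44, 6 fell and 0 rose in HCT15, with a median log2 fold change of -0.26, against 31.2% of all tested genes that fell and a median of -0.17. They were led by the hyaluronidase HYAL2 (-0.76, limma adjusted p = 0.000182), NF2, which encodes the CD44-binding protein merlin (-0.81, 0.000492), the protease MMP14 (-1.24, 0.000781) and the linker EZR (-0.48, 0.00258). With median-ratio scaling 2 rose and 5 fell among the EPCAM genes, and 1 rose and 5 fell among the CD44 genes. Of all 15584 tested genes 2242 rose and 2600 fell with that scaling, and of 14849 tested genes 1767 rose and 2406 fell after the GC correction. After the GC correction 1 rose and 5 fell among the EPCAM genes and 1 rose and 3 fell among the CD44 genes, where EZR was lost (-0.21, limma adjusted p = 0.0812).

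A list of 8 tested genes held the relatives PROM2, LRIG2 and LRIG3 of PROM1 and LRIG1. Its other genes, which are not relatives, were HDAC6, MET and the ERBB receptors EGFR, ERBB2 and ERBB3, which LRIG1 restrains. Of the 8, 6 fell and 0 rose in HCT15, with a median log2 fold change of -0.39. LRIG2 (-0.019, limma adjusted p = 0.951) and LRIG3 (-0.21, 0.332) did not pass. Over all tested genes 31.2% fell, with a median of -0.17. ERBB2 averaged 16.3 TPM in HCT15 RNF26 cells and 32.8 TPM in HCT15 controls (log2 fold change -0.97, limma adjusted p = 0.000105). EGFR changed by -0.66 (limma adjusted p = 0.000605), ERBB3 by -0.45 (0.00521) and PROM2, the other prominin, by -0.76 (0.00850). With median-ratio scaling 3 of the 8 fell, ERBB3 being lost (limma adjusted p = 0.0640), and after the GC correction 4 fell, PROM2 being lost (0.113). Of all 15584 tested genes 2600 fell and 2242 rose with median-ratio scaling, and of 14849 tested genes 2406 fell and 1767 rose after the GC correction. Of 14 tested aldehyde dehydrogenases 8 fell and 0 rose, against 31.2% of all tested genes that fell. Their median log2 fold change was -0.26, against -0.17 over all tested genes. The calls were led by ALDH18A1 (-0.64, limma adjusted p = 7.60e-05), ALDH1B1 (-0.63, 0.000212), ALDH3A1 (-0.72, 0.00472) and ALDH4A1 (-0.80, 0.00501). ALDH3A1 averaged 27.1 TPM in HCT15 RNF26 cells and 45.3 TPM in HCT15 controls, far above ALDH1A1 in the same cells. With median-ratio scaling 1 rose and 5 fell, and after the GC correction 2 rose and 2 fell, ALDH3A1 (limma adjusted p = 0.141) and ALDH4A1 (0.102) being lost. In HCT116 none of these genes passed.

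Lower values in HCT15 with RNF26 were also found among genes of colon differentiation. Of 23 listed genes 9 were tested, and 5 fell and 1 rose, against 31.2% of all tested genes that fell and 5.39% that rose. Their median log2 fold change was -0.40, against -0.17 over all tested genes. With median-ratio scaling 3 fell and 1 rose, where 2600 of all 15584 tested genes fell and 2242 rose. After the GC correction 3 fell and 2 rose, where 2406 of 14849 tested genes fell and 1767 rose. Villin (VIL1), of the microvillus core, averaged 25.8 TPM in HCT15 RNF26 cells and 81.7 TPM in HCT15 controls (log2 fold change -1.59, limma adjusted p = 6.40e-05). The colon transcription factor CDX2 averaged 10.9 TPM in HCT15 RNF26 cells and 29.2 TPM in HCT15 controls (-1.37, limma adjusted p = 0.000479), and the keratins KRT19 (-0.46, 0.00281) and KRT8 (-0.40, 0.00371) were the next by p. Both keratin calls were lost with median-ratio scaling (limma adjusted p = 0.0627 for KRT19 and 0.134 for KRT8) and after the GC correction (0.219 and 0.747 for the same genes). The carbonic anhydrase CA2 rose, at 15.7 TPM in HCT15 RNF26 cells and 11.9 TPM in HCT15 controls (0.37, limma adjusted p = 0.00730). Of the blood cell markers 4 of 10 were tested and CD14 fell (-0.47, limma adjusted p = 0.00436), a call lost with median-ratio scaling (0.0711). The 10 blood markers summed to 13.4 to 16.8 TPM in HCT15 RNF26 libraries and 16.6 to 25.0 TPM in HCT15 controls, with CD3E at 0 in every library, and their part in the results was not tested. Of 10 fibroblast and endothelial markers, 1 was tested and did not pass, and the sum was 0.310 to 0.850 TPM in HCT15 RNF26 libraries and 0.820 to 1.59 TPM in HCT15 controls.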

How the data were processed

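RNA-seq of 12 libraries, 3 in each of 4 groups taken from the sample titles, was deposited by the authors as 1 table of TPM values per gene. The build GRCh38 and the tools HISAT2, RSEM, StringTie and fastp are named, per the submitters' processing notes, with no roles or versions. The deposited values hold no counts, so depth and counting error are unknown. Symbols matched 42300 of the 63036 identifiers. From log2(TPM + 1) of the 15584 genes at 1 TPM or more in at least 3 libraries, limma 3.58.1 in R 4.3.3 fitted 1 mean per group with a mean-variance trend. The contrasts were RNF26 over control in each line, their difference, and HCT15 over HCT116 control cells, each with Benjamini-Hochberg adjustment over all tested genes at 0.05. An exact permutation test of 3 against 3 libraries cannot go below 0.1. The fit was tested on simulated data. Alternatives were pseudocounts of 0.1 and 5, other filters and scalings, other variance settings, each line alone, a replicate term and each library left out. A spline correction for transcript GC content and length was chosen after seeing the data. All 9 members are named, with the 2 genes closest to each tested member by correlation. From each further list all called genes are named where there were 4 or fewer, and otherwise the 4 smallest p in HCT15 and any called in the opposite direction, and 1 gene that this rule names is not reported here. CLDN7, CD9, LGR5, OLFM4, CDH17, LRIG2, LRIG3, HDAC6 and MET, and the markers at or near 0, were named after their values were seen or as markers. Members and lists were chosen with earlier results of these data known.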

Additional observations from a re-analysis of the deposited data

Results flagged for a closer look

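CD24 and EPHB2 were flagged because the effect of RNF26 differed between the lines by a direct test, which called 20.5% of all tested genes. For CD24 the log2 fold change was 0.29 in HCT15 and -0.32 in HCT116, a difference of 0.61 (limma, Benjamini-Hochberg adjusted p = 0.0204, range over alternatives 0.00372 to 0.0519), with all 3 RNF26 libraries above the controls in HCT15 and all 3 below them in HCT116. Neither effect passed on its own within a line.

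For EPHB2 the log2 fold change was -0.86 in HCT15 and -0.16 in HCT116, a difference of -0.70 (limma, Benjamini-Hochberg adjusted p = 0.0373, range over alternatives 0.0270 to 0.389), with all 3 RNF26 libraries below the controls in HCT15 and overlap in HCT116. The EPHB2 call held under 7 of 22 alternatives and was lost with median-ratio scaling, quantile normalization and the GC correction. RNF26 itself rose by different amounts, to 54.2 TPM in HCT15 and 296 TPM in HCT116, so line and dose cannot be told apart.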

How the results depend on the processing

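Of 650 recomputed member values, 574 kept their direction and side of the threshold, 47 lost a call, 13 gained one and 16 changed sign. In HCT15 the count of members called, 2, was 1 with no filter, 0 with a 5 TPM filter (which removes EPHB2 and EPHB3), 4 with median-ratio scaling, quantile normalization or mitochondrial and ribosomal protein genes left out, 1 with HCT15 alone, 3 with a pseudocount of 5 or the added GC correction, and 1 to 2 with a library left out. The count for the difference of effects, 2, was 1 with no filter, a 5 TPM filter, those genes left out or the added correction for GC content and length, and 0 to 2 with a library left out. The count between lines, 7, was 4 with quantile normalization, 5 with a 5 TPM filter, median-ratio scaling or the GC correction, 6 with a pseudocount of 0.1, those genes left out or the replicate block, and 5 to 7 with a library left out. In HCT116 it stayed 0 throughout. Values that had not been called changed sign with median-ratio scaling, quantile normalization and those genes left out: ALCAM in HCT15 (0.092, 0.15 and 0.0066), EPCAM in HCT15 (0.21, which was then called, 0.014 and 0.11, and 0.070 with the GC correction) and the ALCAM difference (0.11, 0.17 and 0.016). So did the EPCAM difference with median-ratio scaling (0.099) and the PROM1 difference with a pseudocount of 0.1 (0.048). With a library left out, ALCAM in HCT116 ran from -0.053 to 0.054, PROM1 in HCT15 from -0.037 to 0.082 and EPCAM in HCT15 from -0.026 to 0.011. The cause was not tested.

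Same-numbered libraries correlated by -0.054 to 0.146 in their deviations from the group means. Libraries with different numbers were not compared, so whether the numbers pair the samples cannot be told from these values. With the replicate block the counts were 2 in HCT15, 0 in HCT116 and 1 for the difference, where EPHB2 had a limma adjusted p of 0.0509; between lines EPHB2 had 0.0565. Members under 1 TPM are the least certain, since depth is unknown.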

Other observations

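Genes of regenerating or fetal-like intestinal epithelium, a state set against the crypt-base programme in mouse studies, were also examined in HCT15. Of 10 listed genes 9 were tested, and 3 fell and 1 rose with RNF26. Over all tested genes 31.2% fell and 5.39% rose, so the share that fell is near the background. The median log2 fold change was -0.29, against -0.17 over all tested genes. With median-ratio scaling 3 fell and 2 rose, where 2600 of all 15584 tested genes fell and 2242 rose. After the GC correction 1 fell and 1 rose, where 2406 of 14849 tested genes fell and 1767 rose. Clusterin (CLU) averaged 88.3 TPM in HCT15 RNF26 cells and 179 TPM in HCT15 controls (log2 fold change -1.02, limma adjusted p = 0.000768), and LY6D changed by -0.70 (limma adjusted p = 0.00145), a call lost after the GC correction (-0.29, limma adjusted p = 0.103). LY6D averaged 1.78 TPM in HCT15 controls, 0.713 TPM in HCT15 RNF26 cells and 0.18 TPM or less in the HCT116 groups. It passed the filter through the HCT15 controls, the group in which it was high, so the filter favoured a fall. The calcium-binding protein S100A6 rose by 0.70 (limma adjusted p = 0.0281), but without control replicate 3 the value was 0.40 and the call was lost (limma adjusted p = 0.0507). The call was also lost without HCT15 control replicate 1, without HCT15 RNF26 replicate 1, 2 or 3, with HCT15 alone and with no filter. No gene of this list passed in HCT116. Between control lines CLU, ANXA1, S100A6, ANXA10 and MSLN were lower in HCT15 and LY6D and PLAUR higher.

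Over the 12 libraries, among 9340 named genes averaging 5 TPM or more, the genes most like each member in log2(TPM + 1) fell into 2 kinds by Pearson's r. For CD44 they were H2AJ and PAM, for PROM1 KRT23 and ADGRF1, for ALCAM HSPA8 and VTI1A and for EPCAM N4BP2L1 and ERAP2, all above 0.99, and 802 genes or more exceeded 0.95 for each of the 4, which share the gap between the lines. EPHB2 had 2 genes above 0.95, STARD3 (0.977) and MBOAT7 (0.957), and CD24 had 8, led by PAAF1 (0.972) and EPHX2 (0.966). For EPHB3 the closest were OGFOD2 (0.873) and SLC12A8 (0.868). STARD3 averaged 23.1 TPM in HCT15 RNF26 cells, 45.2 TPM in HCT15 controls, 31.0 TPM in HCT116 RNF26 cells and 33.7 TPM in HCT116 controls. The points share their libraries and line, so these values are descriptions.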
